A study of Mus musculus with 32 samples.

Results

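The genes described here are 10 genes of extracellular adenosine and ATP signalling, out of 25067 genes in the count table of a mouse macrophage series. The rule named them by symbol: the adenosine receptors Adora2a, Adora2b and Adora3, the ATP-gated channels P2rx4 and P2rx7, the nucleotide receptors P2ry2, P2ry6 and P2ry12, the ectonucleotidase Entpd1 and the adenosine deaminase Ada. Each gene was represented by its transcript with the highest mean count. All 10 passed the expression filter, a mean above 1 RPKM (tags scaled to transcript length and library size) in at least 1 group, which left 11186 genes tested.

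The series compared bone marrow-derived macrophages (BMDMs) of wild-type mice (BMDM-WT) and of mice lacking the nuclear receptor Nur77, encoded by Nr4a1 (BMDM-Nur77-KO), by RNA sequencing at 0, 1, 5 and 18 h of LPS at 100 ng/ml, to ask how Nur77 shapes macrophage activation. There were 8 groups of 4 libraries each, 32 in all, with 8742362 to 15780926 counted tags per library. The knockout, given the genotype cre in the labels, was a whole-body deletion made with Cre under a CMV promoter and a floxed Nr4a1 locus, with Cre bred out afterwards, and the wild types were littermates. All groups came from male C57Bl6/J mice of 6 to 12 weeks whose marrow was differentiated for 7 days in L929-conditioned medium. The labels do not say whether the 4 replicates of a group came from separate animals, so p-values measure the spread between these samples, which may be technical. In bulk RNA, fewer cells expressing a gene and less RNA per cell cannot be told apart.

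Cells release ATP when stressed or damaged, and it acts through P2X channels, which open on binding ATP, and through P2Y receptors, which couple to G proteins. Surface enzymes degrade ATP in steps to adenosine, which acts on its own G protein-coupled receptors until it is taken up or deaminated to inosine. In macrophages, ATP acting on P2rx7 is a classical trigger of inflammasome activation, whereas adenosine acting on Adora2a and Adora2b raises cyclic AMP and dampens inflammatory cytokine production.

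On GRCm38.p6, the mm10 build, the adenosine receptor genes lie at chr10:75316877-75334792 (Adora2a), chr11:62248984-62266452 (Adora2b) and chr3:105904421-105908928 (Adora3). The channel genes lie at chr5:122707518-122729739 (P2rx4) and chr5:122643927-122692336 (P2rx7). The P2Y receptor genes lie at chr7:100996568-101012053 (P2ry2), chr7:100937630-100975498 (P2ry6) and chr3:59216271-59262985 (P2ry12), and P2ry2 and P2ry6 are neighbours 21070 bases apart. Entpd1 lies at chr19:40612366-40741602 and Ada at chr2:163726571-163750239..

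Nr4a1 itself was measured at 19.5, 15.5, 25.8 and 18.2 CPM (tags per library scaled to the same total, here with edgeR's TMM factors) in the 4 BMDM-WT libraries at 0 h and at 4.93, 4.63, 4.46 and 7.03 CPM in the BMDM-Nur77-KO libraries. At 1 h of LPS it reached 438 ± 60.3 CPM in BMDM-WT and 191 ± 40.0 CPM in BMDM-Nur77-KO (mean ± SD, n = 4). The knockout libraries were below every wild-type library at 0, 1 and 5 h, and tags on Nr4a1 were still counted in them; which exons gave these tags cannot be read from a table of whole transcripts. One library stood apart: BMDM-Nur77-KO replicate 1 at 5 h differed from its group by a median of 0.459 on the log2 scale over all tested genes, against 0.0783 to 0.325 in the other 31, the highest of these being BMDM-Nur77-KO replicate 4 at 18 h. The 8 macrophage markers summed to 11010 to 18960 CPM per library with none at 0 in any group. These sums did not overlap between genotypes at 5 h, where BMDM-WT had 16520 to 17940 CPM and BMDM-Nur77-KO 13210 to 16070 CPM. Nor did they at 18 h, with 14040 to 14690 and 11010 to 12660 CPM. At 5 h 1 marker was higher in the knockout and 3 lower, against 13.7% and 10.7% of all tested genes. At 18 h 1 was higher and 4 lower, against 11.7% and 9.93%. Neutrophil markers summed to 11.8 to 36.8 CPM. Of the 3 tested, 2 were higher in the knockout at 0 h and 1 at 1 h, against 6.33% and 3.48% of all tested genes. Dendritic cell markers summed to 0.613 to 21.7 CPM, and the 1 tested was higher in the knockout at 18 h (log2 0.87). B cell markers summed to 1.38 to 4.71 CPM, and the 1 tested was lower in the knockout at 0 h (log2 -0.97). Fibroblast, mast cell and erythroid markers summed to at most 3.90 CPM. The T cell list reached 38.3 CPM at 5 h through Lck, at 28.9 ± 1.87 CPM in BMDM-WT and 32.0 ± 7.33 CPM in BMDM-Nur77-KO, while Cd3d, Cd3e and Cd3g stayed at or below 0.487 CPM in every library. The part of these shifts in the results below was not tested.

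Per kilobase of transcript, P2rx4 had the highest level of the 10 genes in 7 of the 8 groups, from 92.1 RPKM in BMDM-WT at 1 h to 196 RPKM in BMDM-WT at 18 h. The exception was BMDM-WT at 5 h, where P2ry6 had 107 ± 8.07 RPKM and P2rx4 94.8 ± 3.55 RPKM (mean ± SD, n = 4). P2ry6 ranged from 62.3 to 107 RPKM and Entpd1 from 28.8 to 56.2 RPKM over the 8 groups. P2rx7 (7.81 to 22.5 RPKM) and P2ry2 (3.84 to 13.6 RPKM) came next, and Adora3, P2ry12 and Ada stayed below 6 RPKM in every group. Adora2a and Adora2b were near the low genes at 0 h and at 5 h reached levels above those of P2rx7 in BMDM-WT. These are levels, not differences, and the order rests on annotated transcript lengths, for P2ry12 that of another transcript of the gene.

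**Figure D1:**
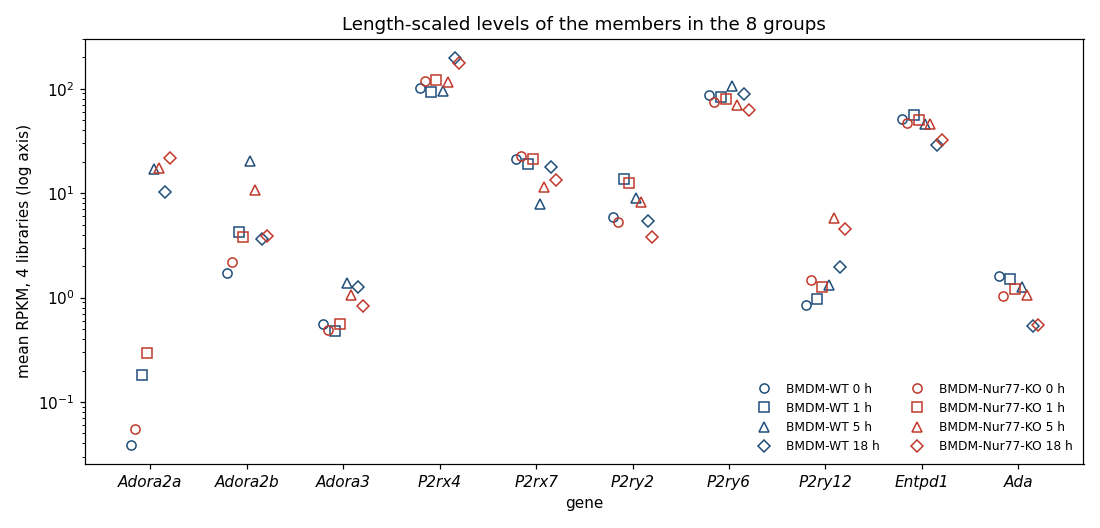
Mean RPKM of each gene (y axis, log scale) in the 8 groups, with the genotype by colour and the time of LPS by symbol, 4 libraries per group. P2rx4, P2ry6 and Entpd1 lie at the top at all times, and Adora2a spans the widest range, from 0.0391 to 21.7 RPKM.

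Between genotypes, the count of genes that passed the test (edgeR's quasi-likelihood test, Benjamini-Hochberg adjusted p under 0.05 over all 11186 genes) went from 0 at 0 h to 1 at 1 h and 5 at both 5 and 18 h. At 0 h none of the 10 was called higher or lower in BMDM-Nur77-KO, where 6.33% of all tested genes were higher and 6.34% lower, though at an unadjusted p under 0.05 there were 3, and DESeq2 called 1 (P2rx4). At 1 h 1 was higher and 0 lower, against 3.48% and 3.06% of all genes. At 5 h 3 were higher and 2 lower, against 13.7% and 10.7%. At 18 h 2 were higher and 3 lower, against 11.7% and 9.93%. The median log2 fold change of the 10 was -0.06 at 5 h and -0.03 at 18 h, beside 0.020 and -0.012 over all tested genes, so the calls went both ways about a median near 0.

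More of these genes passed the test for LPS than for the genotype at each time, which was also true of all tested genes. In BMDM-WT, LPS against 0 h gave 3 higher and 0 lower at 1 h (10.1% and 10.2% of all genes), 5 higher and 1 lower at 5 h (30.1% and 40.1%), and 5 higher and 3 lower at 18 h (32.4% and 34%). In BMDM-Nur77-KO it gave 3 higher and 0 lower at 1 h (6.9% and 5.39% of all genes), 5 higher and 1 lower at 5 h (32.2% and 39.3%), and 5 higher and 5 lower at 18 h (33.9% and 35.7%). The 5 genes higher at 18 h were Adora2a, Adora2b, Adora3, P2rx4 and P2ry12 in both genotypes. Between neighbouring times, 7 of the 10 differed from 1 to 5 h in BMDM-WT and 6 in BMDM-Nur77-KO, where 65.2% and 70.8% of all genes did, and from 5 to 18 h 8 and 6 did, where 69.4% and 69.3% did.

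Whether the response to LPS differed between genotypes was tested by the interaction, the LPS response in BMDM-Nur77-KO minus that in BMDM-WT. No member was called at 1 h, by edgeR or DESeq2, with 1 at an unadjusted p under 0.05 in edgeR, and 0.0447% of all genes were called higher and 0.0268% lower. At 5 h 1 was higher (P2rx7) and 1 lower (Adora2b), against 1.74% and 1.38% of all genes. At 18 h 0 were higher and 2 lower (P2rx4 and P2rx7), against 5.36% and 4.07%. A further interaction, the change from 5 to 18 h in BMDM-Nur77-KO minus that in BMDM-WT, was added after the values were seen: 2 were higher (Adora2a and Adora2b) and 2 lower (P2rx4 and P2rx7), against 7.49% and 6.14% of all genes. Comparisons that use the same group share its libraries and are given side by side only. Whether the libraries of compared groups overlapped is stated for single genes below. The share of all tested genes without such overlap was not computed, so these statements are description only.

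**Figure D2:**
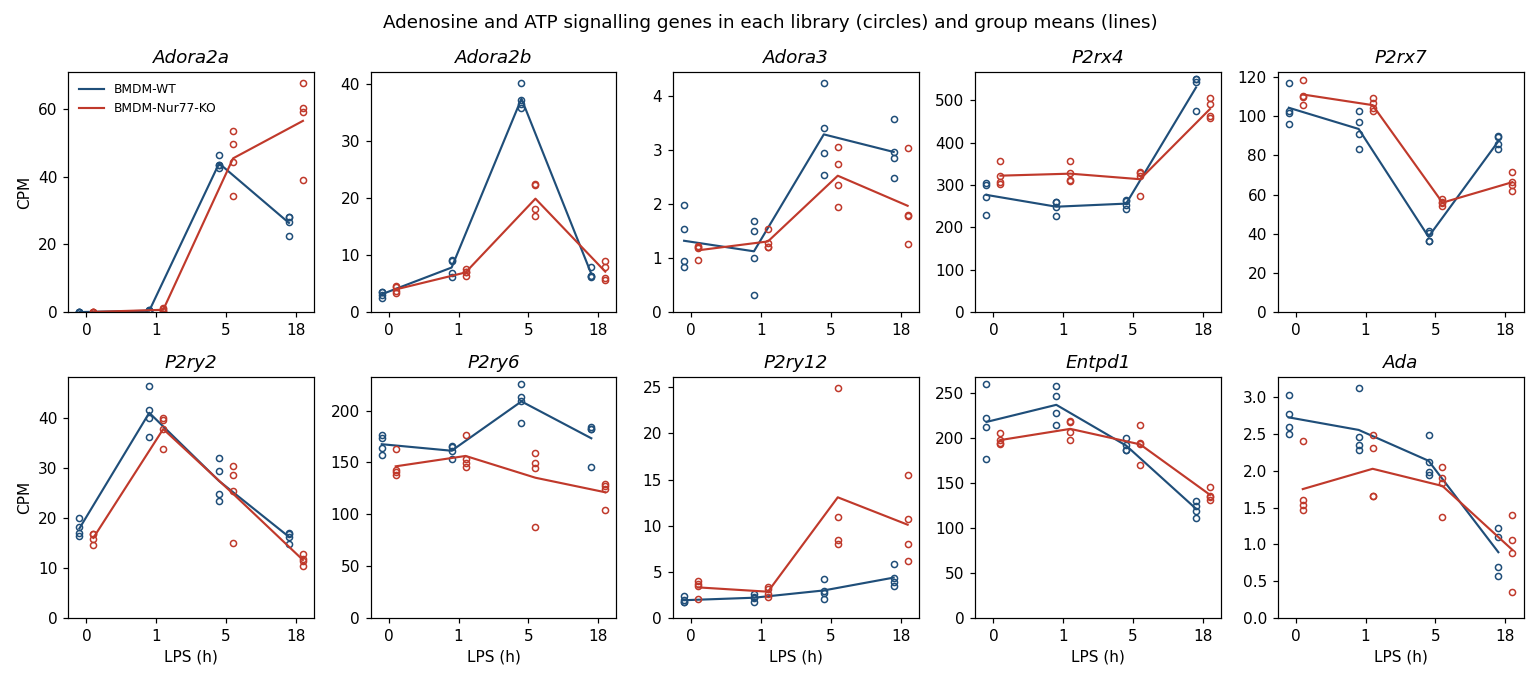
CPM of each gene (y axis, from 0, scaled for each gene) in every library (circles) over the 4 times of LPS (x axis, h, not to scale), with lines through the group means. BMDM-WT and BMDM-Nur77-KO separate for Adora2a at 18 h, Adora2b at 5 h, P2ry12 at 5 and 18 h, and in opposite directions for P2rx7 at 5 and 18 h. Libraries of the genotypes also do not overlap for P2rx4 at 1 and 5 h, P2ry6 at 5 and 18 h and P2rx7 at 1 h. The same holds for P2ry2 and Entpd1 at 18 h and Ada at 0 h. Of these, P2rx7 at 1 h, Entpd1 at 18 h and Ada at 0 h did not pass the test. The share of all tested genes without overlap was not computed.

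Among the adenosine receptors, Adora2a, a Gs-coupled receptor that raises cyclic AMP, went from almost no tags to a high level within 5 h, and at 18 h was higher in BMDM-Nur77-KO. Its CPM was 0.0766, 0.104, 0.152 and 0.0728 in BMDM-WT and 0.0914, 0.254, 0.231 and 0 in BMDM-Nur77-KO at 0 h, which is 0 to 4 tags per library. At 1 h it was 0.570, 0.635, 0.268 and 0.418 CPM in BMDM-WT and 1.20, 0.452, 0.961 and 0.452 CPM in BMDM-Nur77-KO. All libraries at 1 h were above all those at 0 h of their genotype, though still at 14 tags or fewer. At 5 h the values were 43.3, 42.5, 46.4 and 43.4 CPM in BMDM-WT and 34.1, 44.3, 53.4 and 49.7 CPM in BMDM-Nur77-KO. At 18 h they were 26.5, 28.2, 22.6 and 28.1 CPM in BMDM-WT and 60.3, 58.9, 67.5 and 38.9 CPM in BMDM-Nur77-KO. The genotypes overlapped at 5 h and were fully separated at 18 h, where even the lowest knockout library lay above the highest wild-type one.

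From summed tags, the level of Adora2a at 5 h was 433 times (198 to 1182) that at 0 h in BMDM-WT and 298 times (151 to 691) in BMDM-Nur77-KO, the ranges being exact 95% intervals for counting error only. At 1 h it was 4.68 times (1.87 to 13.9) the level at 0 h in BMDM-WT and 4.89 times (2.25 to 12.1) in BMDM-Nur77-KO, and at 18 h 259 times (119 to 708) and 370.2 times (188 to 858). All 6 LPS comparisons of Adora2a passed the test, with adjusted p between 0.014 (1 h, BMDM-WT) and 1.2e-21 (18 h, BMDM-Nur77-KO), and a fitted fold change is not given since at 0 to 4 tags it depends on the prior count. At 18 h Adora2a was 2.14-fold higher in BMDM-Nur77-KO (log2 fold change 1.10, SE 0.15, adjusted p = 1.8e-06), and without replicate 4, the lowest knockout library, the log2 fold change was 1.24. From 5 to 18 h Adora2a fell in BMDM-WT (log2 -0.74, adjusted p = 1.0e-04) and was 0.31 in BMDM-Nur77-KO (adjusted p = 0.061), and the difference of these steps was 1.05 (SE 0.21, adjusted p = 7.8e-04). Over the 8 group means, the tested genes with a pattern most like that of Adora2a were Arid5b, Cxcl11 and Tarm1. Their Pearson correlations of log2(CPM + 0.5) were 0.998, 0.998 and 0.998, a description over 8 groups that share a time course. Correlation does not weigh the size of a change. Group levels ran from 27.7 to 104 CPM for Arid5b, 0 to 151 CPM for Cxcl11 and 0.0368 to 172 CPM for Tarm1.

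Adora2b, a Gs-coupled receptor of low affinity for adenosine, peaked at 5 h, and this peak was 1.88-fold lower in BMDM-Nur77-KO. At 0 h it had 2.45, 3.65, 3.04 and 3.57 CPM in BMDM-WT and 3.38, 3.68, 4.62 and 4.39 CPM in BMDM-Nur77-KO. At 1 h it had 9.05, 6.98, 6.18 and 9.19 CPM in BMDM-WT and 7.55, 7.01, 6.33 and 7.08 CPM in BMDM-Nur77-KO. Every library at 1 h was above those at 0 h of its genotype. At 5 h it had 37.2, 40.2, 36.5 and 35.8 CPM in BMDM-WT and 16.8, 18.1, 22.3 and 22.4 CPM in BMDM-Nur77-KO. All 4 knockout libraries lay below all 4 wild-type libraries at 5 h, and the genotypes overlapped at 0, 1 and 18 h. The log2 fold change at 5 h was -0.91 (SE 0.13, adjusted p = 1.1e-05) in BMDM-Nur77-KO against BMDM-WT and -0.84 without replicate 1 of BMDM-Nur77-KO. The rise at 1 h was log2 1.28 in BMDM-WT and 0.80 in BMDM-Nur77-KO, and the rise at 5 h was 3.54 and 2.30. The difference of the 5 h responses was -1.24 (SE 0.22, adjusted p = 8.8e-04), while at 1 h it was -0.48 (adjusted p = 0.44). By 18 h Adora2b was back at 6.74 ± 0.860 CPM in BMDM-WT and 7.13 ± 1.54 CPM in BMDM-Nur77-KO, still above 0 h in both (log2 1.07 and 0.83). Tle4, B4galt5 and Col11a2 had the patterns most like Adora2b over the 8 group means, with correlations of 0.991, 0.990 and 0.982. Their group levels ran from 51.8 to 102, 146 to 621 and 0.737 to 5.92 CPM.

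Adora3, a Gi-coupled receptor, had the lowest level of the 3 at 5 and 18 h. It rose from 1.32 ± 0.532 CPM at 0 h to 3.29 ± 0.730 CPM at 5 h in BMDM-WT and from 1.15 ± 0.126 to 2.52 ± 0.480 CPM in BMDM-Nur77-KO, with no overlap between the times. At 1 h it was 1.13 ± 0.614 CPM in BMDM-WT and 1.31 ± 0.161 CPM in BMDM-Nur77-KO, not past the test against 0 h in either (log2 -0.13 and 0.18). At 18 h the wild-type libraries had 3.57, 2.48, 2.95 and 2.85 CPM and the knockout libraries 3.04, 1.78, 1.26 and 1.79 CPM. The genotypes overlapped at all 4 times. The log2 fold changes at 5 h were 1.34 (adjusted p = 1.4e-04) and 1.13 (adjusted p = 0.0014). At 18 h the rise in BMDM-Nur77-KO was 0.75 (adjusted p = 0.031), and without replicate 1 of that group at 18 h the adjusted p was 0.19. Between genotypes with all libraries, Adora3 did not pass the test at any time, its largest difference being -0.61 at 18 h (SE 0.27, adjusted p = 0.11). Without that same library, replicate 1 of BMDM-Nur77-KO, the genotype difference at 18 h was -0.89 with an adjusted p of 0.025. Its counts were 3 to 39 tags per library, and 779 of its 3729 exon bases lie in exons of Tmigd3 on the same strand, so its tags cannot be assigned with certainty.

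P2rx7 and P2rx4 are neighbouring genes, 15182 bases apart on chromosome 5 with no other protein-coding gene between them, and their channels share ATP as ligand. P2rx7, the channel that opens a large pore at high ATP, had 103, 95.8, 117 and 102 CPM at 0 h in BMDM-WT and 110.3, 109.8, 106 and 118 CPM in BMDM-Nur77-KO. At 5 h it had 40.3, 36.3, 41.3 and 36.2 CPM in BMDM-WT and 54.0, 58.0, 56.0 and 55.6 CPM in BMDM-Nur77-KO. At 18 h it had 89.9, 83.4, 86.0 and 89.4 CPM in BMDM-WT and 71.7, 66.5, 62.1 and 65.0 CPM in BMDM-Nur77-KO. The knockout libraries were all above the wild type at 5 h and all below it at 18 h. At 1 h P2rx7 had 93.4 ± 8.22 CPM in BMDM-WT and 106 ± 2.89 CPM in BMDM-Nur77-KO. Against 0 h this was log2 -0.16 (adjusted p = 0.11) in BMDM-WT, or -0.20 (adjusted p = 0.048) without replicate 2 of BMDM-WT at 1 h, and -0.07 (adjusted p = 0.69) in BMDM-Nur77-KO.

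P2rx7 thus dipped and recovered in BMDM-WT and dipped less and recovered less in BMDM-Nur77-KO. Its log2 fold change against 0 h was -1.43 at 5 h and -0.26 at 18 h in BMDM-WT, and -0.99 and -0.74 in BMDM-Nur77-KO. The genotype difference was 0.54 at 5 h (SE 0.07, adjusted p = 3.7e-06) and -0.39 at 18 h (SE 0.07, adjusted p = 6.7e-05). It was 0.09 at 0 h and 0.18 at 1 h, neither past the threshold, although at 1 h the knockout libraries did not overlap with the wild type. The LPS response differed between genotypes by 0.44 at 5 h (adjusted p = 0.0088) and by -0.49 at 18 h (adjusted p = 8.9e-04), and the change from 5 to 18 h by -0.93 (SE 0.10, adjusted p = 8.4e-08). With only the 16 libraries of these 4 groups in the fit, the 5 h difference of responses had an adjusted p of 0.07. Exons of P2rx7 share 119 bases with the microRNA gene Mir8115. The count table held 5 transcripts of P2rx7, with mean counts from 68.9 to 1031. Counts of the others correlated with those of the transcript used at 0.949 to 0.9999. The values above are those of the transcript used.

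P2rx4, an ATP channel found largely on lysosomes of macrophages, had 277 ± 34.8 CPM at 0 h in BMDM-WT and 322 ± 25.2 CPM in BMDM-Nur77-KO. The libraries overlapped at this time. At 1 h it had 261, 259, 228 and 248 CPM in BMDM-WT and 356, 328, 309.8 and 313 CPM in BMDM-Nur77-KO. At 5 h it had 254, 261, 266 and 244 CPM in BMDM-WT and 274, 330.5, 321 and 329 CPM in BMDM-Nur77-KO. At 18 h it had 543, 550.4, 475 and 550.0 CPM in BMDM-WT and 492, 504, 463 and 458 CPM in BMDM-Nur77-KO. The knockout was above the wild type in all libraries at 1 and 5 h, and the groups overlapped at 18 h. The genotype difference was 0.39 at 1 h (SE 0.08, adjusted p = 0.0019) and 0.29 at 5 h (SE 0.08, adjusted p = 0.012), the latter with an adjusted p of 0.12 when only the 8 libraries compared were in the fit. At 0 h it was 0.22 (adjusted p = 0.078), and DESeq2 gave 0.24 (adjusted p = 0.017). P2rx4 rose at 18 h by log2 0.94 in BMDM-WT and by 0.57 in BMDM-Nur77-KO, and the difference of these responses, -0.36 (adjusted p = 0.042), lost the call when any of 10 of the 16 libraries was left out, with adjusted p up to 0.11. Without replicate 2 of BMDM-WT at 0 h, P2rx4 was also called lower with LPS in BMDM-WT, at -0.23 at 1 h (adjusted p = 0.036) and -0.19 at 5 h (adjusted p = 0.033), where with all libraries it was -0.15 (adjusted p = 0.2) and -0.11 (adjusted p = 0.23). At 18 h against 0 h, P2rx4 was higher and P2rx7 lower in both genotypes.

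P2ry2, a Gq-coupled receptor for ATP and UTP, was highest at 1 h in both genotypes. It went from 18.2, 16.3, 17.0 and 20.0 CPM at 0 h to 46.2, 41.5, 40.0 and 36.1 CPM at 1 h in BMDM-WT, and from 16.7, 14.6, 15.9 and 16.8 to 40.0, 37.6, 33.6 and 39.6 CPM in BMDM-Nur77-KO. The libraries of the 2 times did not overlap in either genotype. This rise was log2 1.20 in BMDM-WT (SE 0.13, adjusted p = 1.9e-08) and 1.24 in BMDM-Nur77-KO (SE 0.14, adjusted p = 1.6e-08), with a difference of 0.04 (SE 0.19). P2ry2 fell at each later step in both genotypes, and at 18 h it had 14.8, 16.1, 17.0 and 16.8 CPM in BMDM-WT and 12.8, 11.4, 11.7 and 10.3 CPM in BMDM-Nur77-KO. All knockout libraries were lower at 18 h, with a log2 fold change of -0.49 (SE 0.14, adjusted p = 0.014), and without replicate 4 of BMDM-Nur77-KO the adjusted p was 0.051. At 5 h BMDM-WT had 24.7, 29.4, 31.9 and 23.3 CPM, still above 0 h (log2 0.62, adjusted p = 2.1e-04). Replicate 1 of BMDM-Nur77-KO at this time had 15.0 CPM against 25.3 to 30.4 CPM in its other libraries, and without it the genotype difference turned from -0.14 to 0.04, with no call either way. Without the same library, the difference of the steps from 5 to 18 h in P2ry2 was -0.52 (adjusted p = 0.014) in place of -0.35 (adjusted p = 0.28).

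P2ry6, the UDP receptor, changed least over the 8 groups, but was lower in BMDM-Nur77-KO at the later times. At 5 h it had 209, 225, 214 and 188 CPM in BMDM-WT and 87.5, 145, 159 and 149.8 CPM in BMDM-Nur77-KO. At 18 h it had 182, 184, 145 and 182 CPM in BMDM-WT and 127, 124, 129.6 and 104 CPM in BMDM-Nur77-KO. The groups did not overlap at either time. At 0 and 1 h they overlapped, with 168 ± 8.93 and 161 ± 5.83 CPM in BMDM-WT and 146 ± 11.6 and 156 ± 14.0 CPM in BMDM-Nur77-KO. The log2 fold change was -0.63 at 5 h (SE 0.12, adjusted p = 3.6e-04), or -0.47 without replicate 1 of BMDM-Nur77-KO, and -0.52 at 18 h (SE 0.12, adjusted p = 0.0016), or -0.45 without replicate 4. With only the 8 libraries compared in the fit, the adjusted p at 5 h was 0.083. P2ry6 rose with LPS at 5 h in BMDM-WT (log2 0.32, adjusted p = 0.018) and was -0.11 in BMDM-Nur77-KO (adjusted p = 0.4), and the difference of these responses did not pass the test (adjusted p = 0.18). The rise in BMDM-WT had an adjusted p of 0.054 without replicate 2 at 5 h. In BMDM-Nur77-KO P2ry6 was lower at 18 h than at 0 h, at log2 -0.27 (adjusted p = 0.043). This call was lost with DESeq2 (adjusted p = 0.065) and with its size factors in edgeR (0.07). It was also lost in edgeR with another filter on low counts (adjusted p = 0.06) and with no filter (0.081). Leaving out any of 5 libraries lost it too, with adjusted p up to 0.15 (replicate 4 at 18 h).

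P2ry12, the Gi-coupled ADP receptor best known from platelets and microglia, had the largest relative difference between genotypes among the 10. At 0 h it had 1.68, 2.35, 1.75 and 1.89 CPM in BMDM-WT and 3.47, 3.68, 4.00 and 2.08 CPM in BMDM-Nur77-KO. At 1 h it had 2.14, 2.26, 1.75 and 2.61 CPM in BMDM-WT and 3.18, 2.26, 3.36 and 2.56 CPM in BMDM-Nur77-KO. The genotypes overlapped at both of these times. At 5 h it had 2.94, 2.07, 2.65 and 4.24 CPM in BMDM-WT and 24.9, 11.0, 8.40 and 8.03 CPM in BMDM-Nur77-KO. At 18 h it had 4.30, 3.90, 5.82 and 3.45 CPM in BMDM-WT and 8.05, 6.14, 10.8 and 15.5 CPM in BMDM-Nur77-KO. The knockout was higher in all libraries at 5 and 18 h, with the highest value at 5 h in replicate 1 and at 18 h in replicate 4, the libraries that differed most from their groups.

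The log2 fold change of P2ry12 was 2.12 at 5 h (SE 0.32, adjusted p = 2.2e-05) and 1.62 (adjusted p = 6.3e-05) without replicate 1. At 18 h it was 1.21 (SE 0.30, adjusted p = 0.0028) and 0.94 (adjusted p = 0.025) without replicate 4. At 0 h it was 0.77 (adjusted p = 0.16), and 0.79 with an adjusted p of 0.026 when only the libraries at 0 h were in the fit. LPS raised P2ry12 at 18 h in BMDM-WT (log2 1.17, adjusted p = 0.0039) and at 5 and 18 h in BMDM-Nur77-KO (log2 1.96 and 1.61). At 5 h in BMDM-WT it was 0.61 (adjusted p = 0.15), and 0.70 with an adjusted p of 0.015 when only the libraries compared were in the fit. The difference of the 5 h responses was 1.35 (SE 0.48, adjusted p = 0.14), so a larger LPS response in BMDM-Nur77-KO was not shown. The counts were 17 to 230 tags per library, and 9 exon bases overlap Med12l on the opposite strand, with the strand setting of the counting not stated. Ankrd12, Zxda and Eif5b had the patterns most like P2ry12 over the 8 group means, with correlations of 0.987, 0.978 and 0.9754. Their group levels ran from 44.4 to 88, 1.65 to 3.31 and 188 to 330 CPM.

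**Figure D3:**
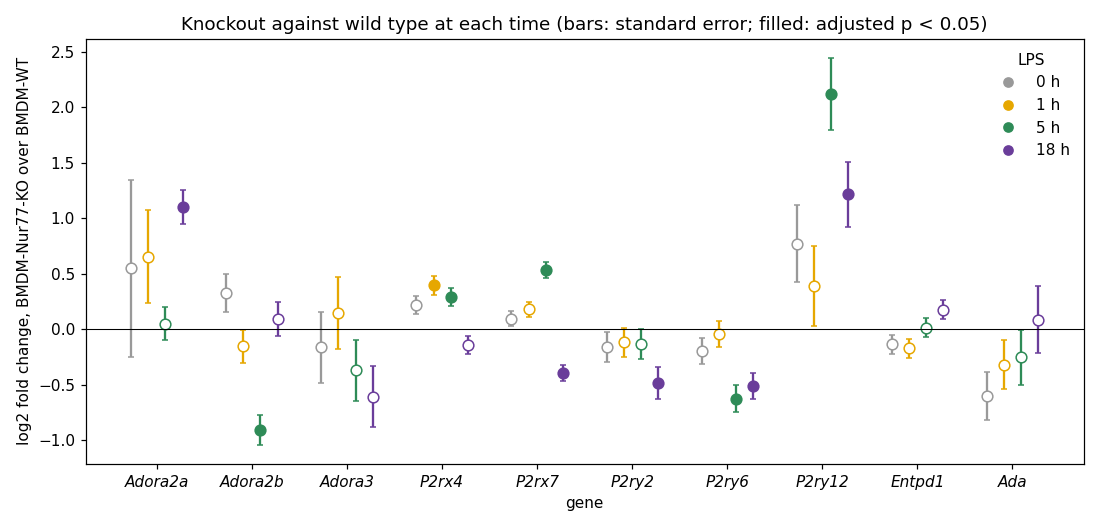
Log2 fold change of BMDM-Nur77-KO over BMDM-WT (y axis) for each gene at 0, 1, 5 and 18 h of LPS (colours), with bars for the standard error and filled points for adjusted p under 0.05. P2ry12 is highest at 5 h (2.12), Adora2b lowest at 5 h (-0.91), and P2rx7 lies on opposite sides of 0 at 5 and 18 h.

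Entpd1 (CD39), the ectonucleotidase that removes phosphates from extracellular ATP and ADP, fell late in both genotypes. It had 222, 177, 260.4 and 213 CPM at 0 h and 112, 131, 125 and 119 CPM at 18 h in BMDM-WT. In BMDM-Nur77-KO it had 198, 194, 206 and 194 CPM at 0 h and 136, 134, 132 and 146 CPM at 18 h. The times did not overlap in either genotype. At 1 and 5 h the means were 237 ± 19.5 and 192 ± 6.11 CPM in BMDM-WT and 211 ± 9.98 and 193 ± 18.4 CPM in BMDM-Nur77-KO, and with all libraries none of these differed from 0 h past the test. The difference at 5 h in BMDM-WT was -0.18 (adjusted p = 0.054), and it passed at -0.27 (adjusted p = 0.0036) without replicate 2 of BMDM-WT at 0 h, the lowest wild-type library there. For the same transcript it also passed, at -0.22 (adjusted p = 0.019), when the transcripts of all genes were in the fit. From 5 to 18 h the step was log2 -0.66 in BMDM-WT and -0.50 in BMDM-Nur77-KO. Against 0 h the fall was log2 -0.84 in BMDM-WT (SE 0.09, adjusted p = 4.6e-10) and -0.53 in BMDM-Nur77-KO (SE 0.09, adjusted p = 2.2e-06), and the difference of these responses was 0.31 (adjusted p = 0.11), or 0.40 (adjusted p = 0.017) without that wild-type library. At 18 h all knockout libraries were above the wild-type ones, but the difference of 0.17 did not pass the test (adjusted p = 0.16).

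Ada, which deaminates adenosine to inosine, was at the lower end of the levels and fell further. It had 2.73 ± 0.233 CPM at 0 h and 0.894 ± 0.311 CPM at 18 h in BMDM-WT, and 1.75 ± 0.443 and 0.926 ± 0.434 CPM in BMDM-Nur77-KO (mean ± SD, n = 4). The fall was log2 -1.59 in BMDM-WT (adjusted p = 2.0e-06) and -0.90 in BMDM-Nur77-KO (adjusted p = 0.0031). Most of it came between 5 and 18 h, with steps of -1.24 and -0.91, and at 5 h the means were 2.14 ± 0.247 and 1.79 ± 0.297 CPM. At 0 h Ada had 2.60, 2.50, 3.04 and 2.77 CPM in BMDM-WT and 1.46, 2.41, 1.54 and 1.60 CPM in BMDM-Nur77-KO. All knockout libraries were lower at 0 h, but the difference of -0.61 (SE 0.22) had an adjusted p of 0.063. Without replicate 2 of BMDM-Nur77-KO, the highest knockout library at 0 h, it was -0.82 with an adjusted p of 0.025. The counts of Ada were 4 to 48 tags per library.

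The regions upstream of the start sites of 5 of these genes are given because they stand next to results above. Adora2b and P2ry2 rose at 1 h in both genotypes, and P2ry12 differed most between genotypes. P2rx7 and P2rx4 are neighbours that LPS moved in opposite directions at 18 h in both genotypes. RefSeq promoter windows (GRCm38.p6, 250 bases before to 50 after a start) were found for 8 of the 10 genes, and only the 250 upstream bases are printed, 5′ to 3′ on the strand of the gene. Windows of 300 bases were searched on both strands for the AP-1 site TGANTCA, the CRE core TGACG, the Nur77 monomer site NBRE (AAAGGTCA) and the kB site, which did not overlap each other here, and capitals mark the matches. The regions are chr11:62248734-62248983 (+) for Adora2b, chr7:101012054-101012303 (-) for the first of 2 P2ry2 starts, chr5:122643677-122643926 (+) for the first of 2 P2rx7 starts, chr5:122707294-122707543 (+) for P2rx4 and chr3:59262986-59263235 (-) for P2ry12.
Adora2b: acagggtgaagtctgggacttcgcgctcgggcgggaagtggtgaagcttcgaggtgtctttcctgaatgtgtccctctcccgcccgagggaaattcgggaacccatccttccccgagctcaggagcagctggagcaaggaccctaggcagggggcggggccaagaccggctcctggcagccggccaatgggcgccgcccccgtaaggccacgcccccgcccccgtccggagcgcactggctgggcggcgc
P2ry2: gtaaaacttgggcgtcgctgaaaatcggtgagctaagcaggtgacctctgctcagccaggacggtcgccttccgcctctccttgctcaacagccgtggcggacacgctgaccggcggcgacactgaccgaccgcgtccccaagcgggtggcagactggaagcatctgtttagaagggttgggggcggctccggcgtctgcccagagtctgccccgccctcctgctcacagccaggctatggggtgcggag
P2rx7: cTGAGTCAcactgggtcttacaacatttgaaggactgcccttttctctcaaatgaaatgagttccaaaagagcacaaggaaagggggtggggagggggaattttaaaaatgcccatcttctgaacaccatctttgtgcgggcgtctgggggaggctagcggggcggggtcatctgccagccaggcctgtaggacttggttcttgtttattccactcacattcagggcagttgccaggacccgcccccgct
P2rx4: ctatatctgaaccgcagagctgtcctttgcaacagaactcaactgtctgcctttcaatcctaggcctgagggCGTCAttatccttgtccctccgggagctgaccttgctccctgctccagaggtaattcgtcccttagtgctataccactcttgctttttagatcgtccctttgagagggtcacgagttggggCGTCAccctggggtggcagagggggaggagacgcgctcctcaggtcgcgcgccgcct
P2ry12: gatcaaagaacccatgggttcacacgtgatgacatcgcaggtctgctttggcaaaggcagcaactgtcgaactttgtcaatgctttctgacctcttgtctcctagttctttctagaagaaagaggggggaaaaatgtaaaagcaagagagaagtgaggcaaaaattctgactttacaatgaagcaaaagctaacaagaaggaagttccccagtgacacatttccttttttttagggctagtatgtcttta

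The first P2rx7 window held an AP-1 match at position -249 from the start, and the second, not printed, held no match. The P2rx4 window held CRE cores at -178 and -57 on the other strand. Of the windows not printed, that of Adora3 held an AP-1 match at -98 and both windows of Entpd1 held a CRE core. None of the searched letters was found in the windows of Adora2b, P2ry2, P2ry12 and Ada, and no member window held an NBRE or a kB site. Over all 32851 promoter windows, 7.81% held the AP-1 site, 20.8% the CRE core, 1.51% the NBRE and 4.51% the kB site. GC content of the printed stretches ran from 41.6% for P2ry12 to 69.6% for Adora2b.

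Of 11 other adenosine and P2 receptor genes, 3 passed the expression filter, P2ry1, P2ry13 and P2ry14. At 18 h in BMDM-Nur77-KO against BMDM-WT 2 of the 3 were higher and 0 lower, with P2ry13 at log2 1.09 and P2ry14 at 0.42. P2ry13, another ADP receptor, lies next to P2ry12 on chromosome 3, 5389 bases away, and had 8.69 ± 1.17 CPM in BMDM-WT and 18.5 ± 1.57 CPM in BMDM-Nur77-KO at 18 h. At 18 h of LPS in BMDM-WT 2 were higher, P2ry14, the UDP-sugar receptor, at log2 3.19 and P2ry13 at 2.21, and P2ry1 was lower at -3.16. At 0, 1 and 5 h, 1, 0 and 2 of the 3 were higher in BMDM-Nur77-KO and 0, 0 and 0 lower. LPS at 1 and 5 h raised 1 and 2 of them in BMDM-WT and lowered 0 and 1.

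Among enzymes that degrade nucleotides, 1 of 9 further ectonucleotidases passed the filter, Enpp1, which makes AMP from ATP. It was lower at 5 and 18 h of LPS in BMDM-WT (log2 -2.13 at 18 h) and passed the test in 0 of the 4 comparisons of genotypes. Nt5e (CD73), which makes adenosine from AMP, had 0.158 ± 0.114 CPM at 0 h in BMDM-WT and was not among the tested genes. All 4 intracellular NTPDases were tested: at 18 h 2 were lower in BMDM-Nur77-KO (Entpd7 at -0.44 and Entpd5 at -0.43) and 3 lower with LPS in BMDM-WT (Entpd4 at -1.83 and Entpd5 at -0.96 with the largest changes). At 0, 1 and 5 h, 0, 1 and 1 of the 4 were higher in BMDM-Nur77-KO and 0, 1 and 0 lower. LPS at 1 and 5 h raised 1 and 0 of them in BMDM-WT and lowered 0 and 4.

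Of 20 genes of purine salvage and breakdown, 18 were tested. Over the times 0, 1, 5 and 18 h, the genes higher in BMDM-Nur77-KO numbered 1, 0, 0 and 3, against 6.33%, 3.48%, 13.7% and 11.7% of all tested genes. Those lower numbered 3, 1, 3 and 2, against 6.34%, 3.06%, 10.7% and 9.93%. With 1, 5 and 18 h of LPS, 3, 8 and 7 rose in BMDM-WT, against 10.1%, 30.1% and 32.4% of all tested genes. In the same comparisons 1, 5 and 8 fell, against 10.2%, 40.1% and 34%. Adk, which phosphorylates adenosine to AMP, was lower at 18 h in BMDM-Nur77-KO at log2 -0.76 (adjusted p = 1.4e-06), and Ampd3, an AMP deaminase, at -0.30. Gda, the guanine deaminase, was higher at 0.46, and the nucleotidase Nt5c1a had 1.09 ± 0.322 CPM in BMDM-Nur77-KO and 0.292 ± 0.194 CPM in BMDM-WT. With LPS at 18 h in BMDM-WT, Pnp2, a purine nucleoside phosphorylase that can share reads with its near copy Pnp, went from 0.548 ± 0.379 to 14.8 ± 0.716 CPM, Nt5c1a had no tag at 0 h, and Nt5c3b and Ahcy were lower at log2 -2.06 and -1.83.

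Of 7 nucleoside transporters 3 were tested, and at 5 h 2 of them were lower in the knockout and 0 were called at the other times. At 18 h of LPS in BMDM-WT the concentrative transporter Slc28a2 was higher at log2 3.73 and the lysosomal Slc29a3 at 1.22, and the equilibrative Slc29a1 was lower at -1.29. At 1 h of LPS 0 were called, and at 5 h 1 each way. Of 7 genes of ATP release 5 were tested, of which 1, 1, 2 and 0 were higher in BMDM-Nur77-KO over the times 0, 1, 5 and 18 h and 0, 1, 0 and 1 lower (Ano6 at -0.30 on the log2 scale). With 1, 5 and 18 h of LPS, 1, 2 and 2 rose in BMDM-WT and 0, 3 and 2 fell. At 18 h the ATP channel Panx1 was at log2 1.31, Lrrc8a at 0.37, the connexin Gja1 at -1.82 and the vesicular nucleotide transporter Slc17a9 at -1.70.

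Downstream of these receptors, 23 of 26 genes for G proteins, adenylyl cyclases, cyclic AMP phosphodiesterases, protein kinase A and CREB were tested. Those higher in BMDM-Nur77-KO numbered 3, 1, 5 and 3 over the times 0, 1, 5 and 18 h, against 6.33%, 3.48%, 13.7% and 11.7% of all tested genes. Those lower numbered 1, 2, 1 and 2, against 6.34%, 3.06%, 10.7% and 9.93%. At 18 h the largest were Crem, a transcription factor that responds to cyclic AMP, at log2 1.02 (adjusted p = 3.0e-06), and Pde4d, a phosphodiesterase, at 0.81, with the cyclases Adcy7 at -0.62 and Adcy9 at -0.46 lower. With 1, 5 and 18 h of LPS, 3, 8 and 4 rose in BMDM-WT, against 10.1%, 30.1% and 32.4% of all tested genes. In the same comparisons 3, 11 and 11 fell, against 10.2%, 40.1% and 34%. At 18 h of LPS Rapgef3 at 1.82 and Pde4b at 0.98 led the higher, and Pde3b at -3.43 and Adcy3 at -3.12 the lower. The medians of this list at 18 h were 0.04 between genotypes and -0.19 with LPS, beside -0.012 and -0.004 over all tested genes.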

How the data were processed

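RNA of the 32 libraries was sequenced after strand-specific library preparation, and the strand setting of the counting is not given in the sources used here. The authors aligned reads to mm10 with HISAT2 2.1.0, filtered on mapping quality and used HOMER to count tags per RefSeq transcript, with CASAVA 1.8.2 named in the submitters' processing notes. The deposited values are expected counts, in which 28.6% of values were not whole, and they were rounded to whole numbers. Rows without a gene name held 0.233% to 1.37% of a library and were left out. A gene was taken as its 1 transcript of highest mean count. The 11186 genes with a mean above 1 RPKM in at least 1 group were tested in edgeR 4.0.16 (R 4.3.3) by the quasi-likelihood test with TMM scaling over all 32 libraries, 1 mean per group and Benjamini-Hochberg adjustment, after the code was tested on simulated data. Values per library are CPM, and the correlations of patterns used log2(CPM + 0.5).

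Alternatives were DESeq2 1.42.0, its size factors, other filters on low counts, only the libraries compared, a replicate block, all transcripts, a log2 fold limit of 1, and each library left out. With all transcripts in the fit, the value read was still that of the 1 transcript used for each gene. It was read only where that transcript passed the expression filter in that fit. All 10 genes are named in the comparisons. Of each pathway list at most 2 genes each way are named, those with the largest called changes at 18 h, together with Nt5e and the markers Lck, Cd3d, Cd3e and Cd3g, named after their values were seen. For the 3 genes with the widest range, the 3 genes with the most similar pattern are named. The genes and lists were chosen with earlier results of these data known.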

Additional observations from a re-analysis of the deposited data

Results flagged for a closer look

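In 80 groups of 4 libraries (10 genes in 8 groups), 6 held a library whose gap to the nearest of the others exceeded Dixon's 95% critical value for 4 values, as a share of the group's range. Chance gives this in about 5% of groups, which is 1 in 20. Adora2b had 8.02 CPM in BMDM-WT replicate 4 at 18 h against 6.22 to 6.43 CPM in the other libraries. Adora3 had 0.959 CPM in BMDM-Nur77-KO replicate 4 at 0 h against 1.19 to 1.23 CPM. P2rx4 had 273.6 CPM in BMDM-Nur77-KO replicate 1 at 5 h against 321.3 to 330.5 CPM, and 475.4 CPM in BMDM-WT replicate 3 at 18 h against 543 to 550.4 CPM. P2ry6 had 145.4 CPM in the same wild-type library against 181.8 to 183.8 CPM. Ada had 2.41 CPM in BMDM-Nur77-KO replicate 2 at 0 h against 1.46 to 1.60 CPM.

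The genotypes differed in their responses for 4 genes by the edgeR interaction test (adjusted p under 0.05). For the LPS response against 0 h, BMDM-Nur77-KO minus BMDM-WT was -1.24 for Adora2b and 0.44 for P2rx7 at 5 h, and -0.36 for P2rx4 and -0.49 for P2rx7 at 18 h, on the log2 scale. For the change from 5 to 18 h it was 1.05 for Adora2a, 1.00 for Adora2b, -0.44 for P2rx4 and -0.93 for P2rx7, a comparison added after the values were seen. The P2rx4 response at 18 h lost its call when any of 10 libraries was left out, for example BMDM-WT replicate 2 at 0 h (adjusted p = 0.11).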

How the results depend on the processing

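Of 1092 values of single genes under alternatives other than leaving out a library, 1037 kept direction and side of the threshold, 42 lost a call, 5 gained one and 8 changed sign; of 1440 with a library left out, 1368, 19, 9 and 44 did. None of the 55 called values changed sign.

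With a log2 fold change over 1 also required, the genes called between genotypes were 0 at 1 h (1 without that limit), 1 at 5 h (5) and 2 at 18 h (5), with LPS at 18 h 5 in BMDM-WT (8) and 2 in BMDM-Nur77-KO (10), and in the interactions 1 at 5 h (2), 0 at 18 h (2) and 1 from 5 to 18 h (4). Between genotypes at 0 h, 1 gene was called instead of 0 with DESeq2 (P2rx4), DESeq2's size factors (P2rx4) or the compared libraries only (P2ry12). With the compared libraries only, 3 were called at 5 h, and the interactions gave 1 at 5 h and 1 at 18 h. The 18 h interaction also gave 1 with filterByExpr, with no filter and with the replicate block, under which P2rx4 had -0.36 (adjusted p = 0.061). The block also lost the fall of P2ry6 at 18 h in BMDM-Nur77-KO (adjusted p = 0.056) and changed no other call of the 10 genes. Same-numbered libraries deviated from their group means with correlations from -0.757 to 0.525, and not every library correlated best with its own number, so the numbers were not taken as pairs. With each library left out in turn, the genes called were 0 to 1 between genotypes at 0 h, 4 to 6 at 18 h, 3 to 4 at 1 h and 5 to 8 at 5 h of LPS in BMDM-WT, 8 to 10 with LPS at 18 h in BMDM-Nur77-KO, 1 to 2 in the 18 h interaction and 4 to 5 in that from 5 to 18 h.

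Values near 0 that changed sign, none of them called, were P2rx4 at 5 h of LPS in BMDM-Nur77-KO (-0.0379; 0.0497 with DESeq2, 0.0494 with its size factors, 0.0231 with the compared libraries), Entpd1 in that comparison (-0.0353; 0.0532, 0.0529 and 0.0238), the 5 h interaction of P2ry2 (0.02; -0.0011 with the compared libraries) and Entpd1 between genotypes at 5 h (0.01; -0.0016 with all transcripts). With a library left out, such log2 values ran between genotypes from -0.21 to 0.33 for Ada at 18 h, -0.0380 to 0.16 for Adora2a at 5 h, -0.0487 to 0.18 for Adora2b at 18 h, -0.36 to 0.0890 at 0 h and -0.10 to 0.39 at 1 h for Adora3, -0.0444 to 0.0675 for Entpd1 at 5 h and -0.25 to 0.0363 for P2ry2 at 5 h. With LPS in BMDM-Nur77-KO they ran from -0.0629 to 0.22 for Ada, -0.0898 to 0.0220 for Entpd1, -0.0681 to 0.0221 for P2rx4 and -0.20 to 0.0477 for P2ry6 at 5 h and -0.0232 to 0.0749 for P2rx4 at 1 h, and for Adora3 at 1 h in BMDM-WT from -0.37 to 0.13. In the interactions they ran from -0.27 to 0.55 for Adora2a, -0.13 to 0.0544 for Entpd1 and -0.0179 to 0.10 for P2ry2 at 1 h, -0.0870 to 0.20 for P2ry2 at 5 h and -0.0488 to 0.20 for P2ry6 from 5 to 18 h. The cause of these changes was not tested. Adora3 and Ada had 3 to 39 and 4 to 48 tags per library, and whether depth limited their calls was not tested.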
